A study of Mus musculus with 6 samples.

Results

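The 6 genes described here encode inhibitory receptors of T cells: Pdcd1, Ctla4, Lag3, Havcr2, Tigit and Cd160. They were taken by name, with earlier results of these data known. All 6 have a column in each of the 6 deposited expression tables, which share 16158 genes. Each was followed through the T cell subsets and other cell classes of the skin, through the 3 groups of mice, through single cells that carry several of them, and through CD8 T cells split by the beta chain segment of their antigen receptor. CD8 T cells were 3904 of the 20464 cells retained.

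The study sequenced single cells from skin of 6 NINJA mice aged 6 to 12 weeks, a strain in which a gene encoding a neoantigen can be switched on by recombination. All cells came from the skin area that had been treated with 4-OH-Tam (4-hydroxytamoxifen), and the protocol states that P14 CD8 T cells were recovered from the mice. Each group had 2 mice: NO_AG (antigen off), AG (antigen on) and AG_CPI (antigen on with CPI, an abbreviation that the labels do not expand). Per the labels' protocol, each mouse was checked for visible skin pathology and for the infiltration and function of P14 cells before its cells were sequenced, so every mouse entered with the phenotype of its group. P14 is a transgenic T cell line whose receptor recognises a viral peptide and is built with the alpha segment Trav14 and the beta segment Trbv13-3. No label says which single cells are P14 cells, so cells are called here by the segment detected and not by origin.

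Inhibitory receptors are put on the surface of a T cell after its antigen receptor has been engaged, and they damp the signal when they meet their ligands on other cells. PD-1, the product of Pdcd1, binds PD-L1 and PD-L2 and recruits a phosphatase to the antigen receptor complex. CTLA-4, the product of Ctla4, takes CD80 and CD86 away from the costimulatory receptor CD28, and regulatory T cells hold it constantly. LAG-3 binds class II molecules and other ligands, TIM-3 (Havcr2) is found on activated T cells and on myeloid cells, TIGIT competes with the activating receptor CD226 for PVR, and CD160 is a receptor of cytotoxic lymphocytes that binds TNFRSF14.

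The genes lie on 5 chromosomes of the GRCm38 build, and all are protein-coding. Pdcd1 is at chr1:94038305-94052553 on the minus strand and Ctla4 at chr1:60887000-60915832 on the plus strand, between Cd28 and Icos. Lag3 is at chr6:124904361-124911705 on the minus strand, 16140 bases from Cd4. Havcr2 is at chr11:46454935-46481255 on the plus strand, Tigit at chr16:43648867-43664146 on the minus strand, and Cd160 at chr3:96798763-96829351 on the minus strand, where its start overlaps that of Pdzk1 on the other strand. Since 5 of the 6 genes rose together in the CD8 T cells below, the 250 bases before the start site are shown for the genes that RefSeq's promoter table (GRCm38.p6) holds, 5′ to 3′ on the gene's own strand, with matches to 4 motifs in capitals. They are chr1:94052554-94052803 for Pdcd1, chr1:60908775-60909024 for Ctla4, chr11:46454681-46454930 for Havcr2, chr16:43664185-43664434 for Tigit, and, for Cd160, chr3:96814522-96814771 before the second of 2 starts. The 250 bases before the first Cd160 start, chr3:96829352-96829601, held none of the 4 motifs and are not printed. Lag3 has no entry in the promoter table, so no window is shown for it. The Ctla4 window lies inside the gene span given above, before a start within that span.
Pdcd1: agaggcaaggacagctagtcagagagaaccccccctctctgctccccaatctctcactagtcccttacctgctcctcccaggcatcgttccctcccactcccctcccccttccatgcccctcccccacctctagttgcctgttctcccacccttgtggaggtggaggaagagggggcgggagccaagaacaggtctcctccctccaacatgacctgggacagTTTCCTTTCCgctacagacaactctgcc
Ctla4: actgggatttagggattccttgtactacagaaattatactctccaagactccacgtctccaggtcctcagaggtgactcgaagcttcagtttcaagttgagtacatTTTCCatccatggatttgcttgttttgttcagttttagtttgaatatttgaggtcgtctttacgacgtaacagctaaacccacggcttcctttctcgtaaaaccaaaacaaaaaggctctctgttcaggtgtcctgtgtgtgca
Havcr2: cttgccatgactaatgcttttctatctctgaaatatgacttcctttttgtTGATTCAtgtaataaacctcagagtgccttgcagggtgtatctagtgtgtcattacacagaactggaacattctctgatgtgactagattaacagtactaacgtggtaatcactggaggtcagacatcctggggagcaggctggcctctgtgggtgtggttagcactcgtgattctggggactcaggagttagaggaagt
Tigit: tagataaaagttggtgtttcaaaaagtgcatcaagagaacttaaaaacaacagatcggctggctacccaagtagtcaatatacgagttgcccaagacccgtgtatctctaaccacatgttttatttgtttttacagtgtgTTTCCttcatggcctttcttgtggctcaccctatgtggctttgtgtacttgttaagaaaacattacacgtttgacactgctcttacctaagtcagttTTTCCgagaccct
Cd160: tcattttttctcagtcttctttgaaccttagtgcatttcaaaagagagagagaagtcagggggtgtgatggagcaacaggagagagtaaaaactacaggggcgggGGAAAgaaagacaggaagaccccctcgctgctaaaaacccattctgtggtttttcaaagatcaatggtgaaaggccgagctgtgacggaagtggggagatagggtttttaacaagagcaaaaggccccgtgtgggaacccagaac
The motifs searched on both strands were TGANTCA for AP-1, TTTCC for NFAT, AAAGGTCA for NR4A and AGGTGTGA for T-box factors, and no match overlapped one of another motif. Of 32851 mouse promoter windows of the same length, 6.75% held the AP-1 letters, 55.6% the NFAT letters, 1.34% the NR4A letters and 1.12% the T-box letters. The NFAT letters stood 28 and 23 bases before the start of Pdcd1, 110 and 13 bases before that of Tigit, 144 bases before that of Ctla4 and, on the opposite strand, 145 bases before that of Cd160. The AP-1 letters stood 200 bases before the start of Havcr2. These are matches of letters and were not tested as binding sites.

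The libraries held 5903724 to 24656382 UMIs (unique molecular identifiers, one per captured RNA molecule), with a median of 2527 to 4744 UMIs per cell. Of 20921 distinct cell barcodes, 255 occurred in more than 1 library. Classes were named from marker genes after clustering without the 6 receptors and without the alpha and beta segments of the antigen receptor. Gamma and delta chain genes were not left out. Cd3e was among the markers that named the alpha-beta T-like clusters, from which the CD8 T cells were taken. It was detected in 92.8% to 98.3% of the CD8 T cells of the 6 libraries, which is no separate check of their label. RNA of other cells was present: 10 keratinocyte genes together reached 1.94 to 4.11 UMIs per 10000 in CD8 T cells, lower in the AG_CPI mice (1.94 and 2.19) than in the others (3.77 to 4.11), and the part of this RNA in the results was not tested. AG_CPI replicate 1 stood apart in Xist, the RNA of the inactive X chromosome: a UMI of it was found in 65.0% of its CD8 T cells with Trbv13-3, but in 12.0% of those with another beta segment, in none of 14 regulatory T cells and in none of 16 CD4 T cells, against 73.4% to 87.0% of the CD4 T cells of the other mice. Each result is therefore also given without that mouse where this changes a call. Levels of different genes were not compared with each other, and the p-values rest on 2 mice a group.

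In CD8 T cells, 5 of the 6 receptors were higher with antigen than without it, and Cd160 was not. A level is the number of UMIs of a gene per 10000 UMIs in a cell, as a mean of the cells of each mouse (94, 307, 872, 573, 959 and 1099 cells in NO_AG replicates 1 and 2, AG replicates 1 and 2 and AG_CPI replicates 1 and 2). Lag3 was at 0.268 and 0.229 in the NO_AG mice, 5.26 and 4.77 in the AG mice, and 4.37 and 5.35 in the AG_CPI mice. Every mouse with antigen was about an order of magnitude above both mice without it, and the AG and AG_CPI mice overlapped. Havcr2 was at 0.0477 and 0.140 in NO_AG, 1.62 and 2.43 in the AG mice, and 2.54 and 3.08 in AG_CPI, so that the AG_CPI mice were the highest and the NO_AG mice by far the lowest. Pdcd1, the receptor named in the series' title, was at 0.0980 and 0.125 in NO_AG, 1.80 and 2.11 in the AG mice, and 2.20 and 2.53 in AG_CPI, again with no overlap between the groups. Tigit was at 0.498 and 0.147 in NO_AG, 2.67 and 3.48 in the AG mice, and 1.92 and 2.55 in AG_CPI. Here the AG mice were the highest, and both AG_CPI mice lay between them and the NO_AG mice. Ctla4 was at 0.175 and 0.0384 in NO_AG, 0.644 and 0.685 in the AG mice, and 1.08 and 1.03 in AG_CPI, low in every mouse but stepped between the groups. Cd160 was at 1.26 and 2.86 in NO_AG, 1.90 and 1.26 in the AG mice, and 0.902 and 1.01 in AG_CPI. The 2 NO_AG mice enclosed the AG mice, while both AG_CPI mice lay below all others.

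**Figure D1:**
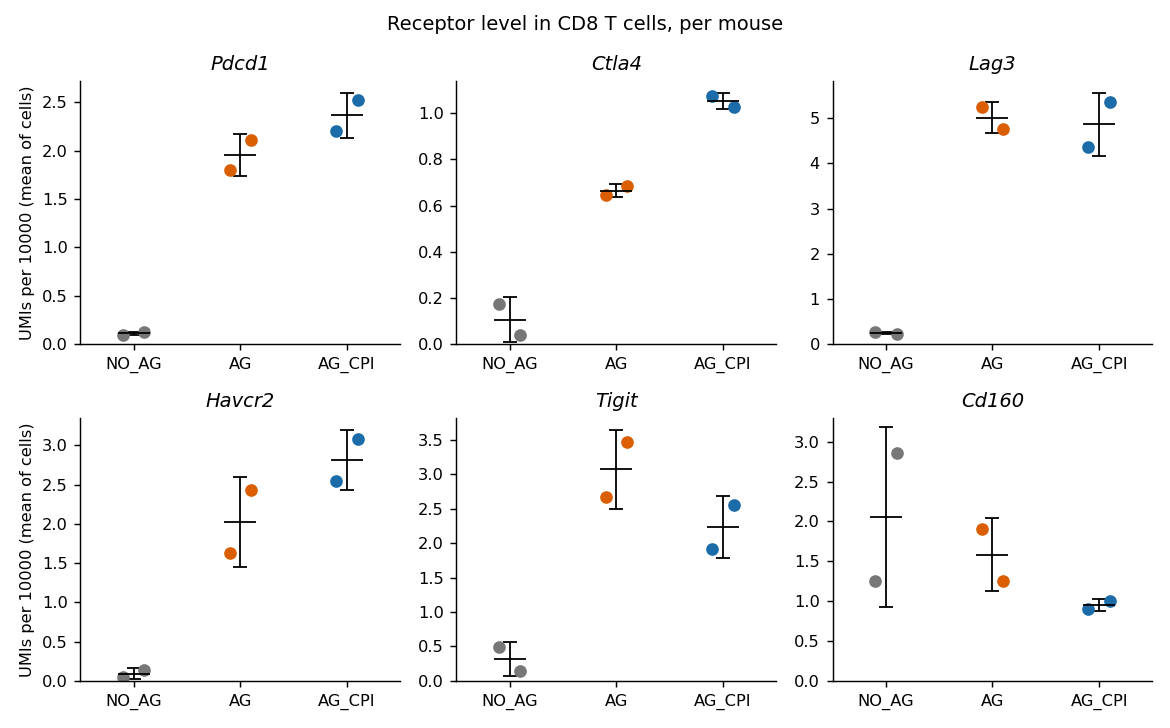
Level of each receptor in CD8 T cells, in mean UMIs per 10000 (linear axis from 0), with 1 point per mouse and the mean and SD of the 2 mice of each group in black. The AG and AG_CPI mice are above both NO_AG mice for Pdcd1, Ctla4, Lag3, Havcr2 and Tigit, whereas the Cd160 points of NO_AG (1.26 and 2.86) enclose those of AG.

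The comparison of AG with NO_AG asks what antigen changed. Limma on log2(TMM-scaled mean + 0.1), with Benjamini-Hochberg adjustment over 7300 genes, called 130 genes (1.78%) at 0.05, 108 of them higher (1.48%) and 22 lower (0.301%). The split was 82 higher and 33 lower with the deposited scaling alone. All 6 receptors passed the filter on low values and 5 were called, all higher, where the median of all genes moved by 0.03 on the log2 scale. Lag3 rose by 3.96 ± 0.17 (SE) on this log2 scale, or 15.5-fold, with an adjusted p of 8.43e-07. Havcr2 rose by 3.54 ± 0.26 (adjusted p = 4.9e-05) and Pdcd1 by 3.35 ± 0.19 (adjusted p = 4.65e-06). Tigit rose by 3.12 ± 0.34 (adjusted p = 0.0011) and Ctla4 by 2.03 ± 0.29 (adjusted p = 0.00635), whose fold of 4.09 understates the change because of the added 0.1. Cd160 differed by -0.19 ± 0.32 (adjusted p = 0.808), less than the spread between mice. Ctla4 lost its call without AG replicate 2 (adjusted p = 0.064), as did Ctla4 and Tigit with no filter on low values (adjusted p = 0.0959 and 0.0671). The number of genes called was 914 without NO_AG replicate 2 and 38 without AG replicate 2.

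The CD8 T cells of the groups lay in different clusters, which were built from genes that the treatment can change. Cluster 11, led by Cd40lg, Cxcr3 and Tesc, held 86.2% and 90.2% of these cells without antigen (NO_AG), 42.4% and 15.9% in the AG mice, and 2.92% and 4.64% in AG_CPI. The rest in the antigen mice were mostly in clusters 7, 8 and 10. Their leading genes include Ccl5, Gzmk, Gzma, Ifng and Klrc1, genes of effector cells. Those of cluster 7 also include Gimap7, Gimap3, Gimap4, Gimap5 and Gimap6, and Ccl1 leads cluster 8. Within cluster 11 alone, an alternative chosen after seeing the data, limma called 0 genes between AG and NO_AG and the receptors differed by 0.32 (Lag3) to 1.14 (Pdcd1) on the log2 scale. Outside cluster 11, where the NO_AG mice had only 13 and 30 cells, Havcr2 (3.96) and Pdcd1 (2.03) were called, each with an adjusted p of 0.0455 where the median of all genes was 0.35, and Lag3 (4.43, adjusted p = 0.0882), Tigit (1.68, adjusted p = 0.143) and Ctla4 (1.21, adjusted p = 0.294) were not. Within cluster 10, NO_AG replicate 2 had 17 CD8 T cells, with Lag3 at 1.68 and Havcr2 at 0.318. The AG mice were there at 8.33 and 4.97 for Lag3 and at 1.95 and 2.51 for Havcr2. Within cluster 11, Pdcd1 was at 0.0249 ± 0.0352 in NO_AG, 0.183 ± 0.152 in the AG mice and 1.07 ± 0.940 in AG_CPI (SD, n = 2 each). The part of the makeup of the CD8 T cells in the difference was not tested.

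The comparison of AG_CPI with AG asks what CPI added to antigen. Limma called 6 of 7300 genes (0.0822%), 3 higher and 3 lower (0.0411% each), and 0 of the 6 receptors, with 332 genes at an unadjusted p under 0.05, and limma-voom on summed UMIs called 29 genes and no receptor. The closest to a change were Cd160, with a difference of -0.67 ± 0.32 and an unadjusted p of 0.058, and Ctla4, with 0.57 ± 0.29 and an unadjusted p of 0.077. The difference for Pdcd1 was 0.24, with bounds of -0.13 and 0.61 at 2 SE, and that for Lag3 was -0.07, with bounds of -0.42 and 0.27. Havcr2 differed by 0.45 (bounds of -0.07 and 0.97) and Tigit by -0.47 (bounds of -1.15 and 0.21). Changes of that size in either direction could not be seen with 2 mice a group.

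Against NO_AG, with which the AG comparison shares its control mice, the AG_CPI mice had the same 5 receptors called higher, where 234 of 7300 genes (3.21%) were called, 155 (2.12%) of them higher and 79 (1.08%) lower. The differences in log2 were 3.99 for Havcr2, 3.88 for Lag3, 3.59 for Pdcd1, 2.65 for Tigit and 2.6 for Ctla4. Cd160 differed by -0.86 ± 0.32 with an adjusted p of 0.203, and reached a call (-1.40, adjusted p = 0.019) only without NO_AG replicate 1.

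Shares of cells with a UMI were compared at equal depth. Every cell was thinned to 1500 UMIs, which left out none since each had at least 1501. A Lag3 UMI was then found in 3.19% and 1.30% of CD8 T cells in NO_AG, 36.1% and 38.1% in the AG mice, and 38.1% and 43.9% in AG_CPI. For Pdcd1 the shares were 1.06% and 0.651%, 18.7% and 22.0%, and 23.3% and 29.4%, and without thinning 2.13% and 3.58%, 31.0% and 36.7%, and 32.9% and 42.1%. Ctla4 stayed rare, at 7.68% to 13.1% of CD8 T cells in the mice with antigen. In the NO_AG mice the shares of 5 receptors were 0.651% to 3.19%, which rest on 1 to 7 cells each, while Cd160 was in 17.02% and 29.3%. The background was read in another class: in keratinocyte-like cells, which should lack the receptors and were thinned alike, a UMI of a receptor was found in at most 4.12% of cells (Havcr2, AG replicate 2, median depth 2281 UMIs), and in NO_AG replicate 2 in 0 of 818 cells, which allows a share of up to 0.367%. In NO_AG replicate 1 the largest such share was 0.0894% (Lag3, 1 of 1119 cells). The share in CD8 T cells was above that in keratinocyte-like cells of the same mouse for each of the 6 receptors in all 6 mice, though keratinocyte-like cells of the NO_AG mice were deeper before thinning (median 5716 and 6584 UMIs against 2126.5 and 2417). These shares and limits cover counting error only.

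Other genes of the pathway, from lists chosen by name with earlier results of these data known, are given beside the receptors. Of 15 other inhibitory receptors tested in CD8 T cells, 5 rose in AG against NO_AG and none fell (median 0.71 in log2, against 0.03 for all genes), where 1.78% of all genes were called, 1.48% higher. They were Klrd1 (2.23) and Klrc1 (3.23), the 2 chains of the inhibitory receptor CD94-NKG2A, Il10ra (1.85), Cd200 (1.79) and Entpd1 (2.05), an ectoenzyme that breaks down ATP. Of 12 activating counterparts, 3 rose: Tnfrsf9 (2.89), the costimulatory receptor 4-1BB, Icos (0.92) and Klrk1 (0.82). Of 25 signalling partners, Sh2d2a (1.40) and Sh2d1a (1.38), adaptors of T cell receptors, rose, and of 22 regulators of receptor expression, Nfatc1 (1.24) and Nr4a2 (1.28) did. None of 10 ligands of the receptors passed the test in these cells between AG and NO_AG. Between AG_CPI and AG no gene of these lists was called. Of 11 keratinocyte and myeloid genes listed to follow RNA of other cells, none was called between AG and NO_AG, and Krt17, a keratin, fell by 1.69 between AG_CPI and AG. In AG_CPI against NO_AG the same number of other inhibitory receptors, 5 of 15, rose, where 3.21% of all genes were called. Of 22 regulators 5 were called: Nfatc1 (1.23), Nr4a2 (1.35), Bhlhe40 (1.24) and Nr4a3 (1.42) rose, and Tcf7, which marks less differentiated T cells, fell by 2.10. Of 12 activating counterparts Tnfrsf9 (2.57), Klrk1 (1.71) and Icos (1.49) rose, and of 25 signalling partners Dok2 (0.97) and Sh2d2a (0.91). Of 10 ligands, Cd86 (1.47), which binds CTLA-4, rose and H2-Aa (-1.42), a chain of the MHC class II molecules that LAG-3 binds, fell. The keratins Krt17 (-1.49) and Krt5 (-1.01) were lower there too (limma's adjusted p = 0.00916 and 0.0426), and their part in the receptor differences was not tested.

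CD8 T cells were then split by the beta segment detected. A Trbv13-3 UMI was found in 1.06% and 3.58% of them without antigen (NO_AG), 46.3% and 56.0% in the AG mice, and 57.3% and 68.6% in AG_CPI. Of the Trbv13-3 cells of the antigen mice, 76.3% to 88.1% also had a UMI of Trav14-1, the alpha segment of the P14 receptor, against 0.87% to 16.8% of the cells with another beta segment. The latter are called other-segment cells, and numbered 345, 102, 125 and 164 in AG replicates 1 and 2 and AG_CPI replicates 1 and 2, against 404, 321, 549 and 754 Trbv13-3 cells. A UMI of Trdc, the constant segment of the delta chain, was found in 37.7% to 40.1% of Trbv13-3 cells and in 0.29% to 11.2% of other-segment cells of these mice, and the calls of receptors between segments were the same 5 in number with those cells left out. A Trbv13-3 UMI was also found in 0.951% to 6.99% of the keratinocyte-like cells of these mice, and a Cd3e UMI in 4.12% to 19.4%; free RNA and undetected doublets cannot be told apart here. The NO_AG mice had 1 and 11 Trbv13-3 cells and entered no segment comparison. CD8 T cells with no beta segment UMI belong to neither kind and were left out of the segment comparisons. They were 14.1% and 26.2% of the CD8 T cells in the AG mice and 29.7% and 16.5% in AG_CPI.

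Between Trbv13-3 and other-segment cells, the RNA of the receptors other than Cd160 was mainly in the former in the AG mice. In the AG_CPI mice it was in both kinds of cell. Lag3 was at 10.1 in Trbv13-3 cells and 0.230 in other-segment cells of AG replicate 1, and at 6.05 and 1.09 in replicate 2. In the AG_CPI mice it was at 4.51 and 4.08 in replicate 1 and at 5.56 and 3.75 in replicate 2, a smaller gap than in the AG mice. Pdcd1 was at 3.36 in Trbv13-3 cells and 0.1002 in other-segment cells of AG replicate 1, at 2.58 and 0.868 in replicate 2, at 2.01 and 3.79 in AG_CPI replicate 1, and at 2.42 and 3.88 in AG_CPI replicate 2. Its order was turned: in both AG_CPI mice the other-segment cells held more Pdcd1 RNA than the Trbv13-3 cells. Tigit was at 4.78 and 0.266, and 4.25 and 0.723, in the AG mice, and at 1.87 and 2.80, and 2.52 and 3.40, in the AG_CPI mice. Havcr2 was at 2.98 and 0.162, and 3.26 and 0.748, in the AG mice, and at 2.56 and 2.71, and 3.06 and 3.46, in the AG_CPI mice. For both genes the Trbv13-3 cells were higher in each AG mouse and the other-segment cells were slightly higher in each AG_CPI mouse. Ctla4 was at 1.01 and 0.240, and 0.765 and 0.364, in the AG mice, and at 1.04 and 1.29, and 0.743 and 1.71, in the AG_CPI mice. Cd160 went the other way in all 4 mice, with 1.16 and 2.64, 0.907 and 1.97, 0.764 and 1.25, and 0.908 and 1.62, always lower in Trbv13-3 cells.

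**Figure D2:**
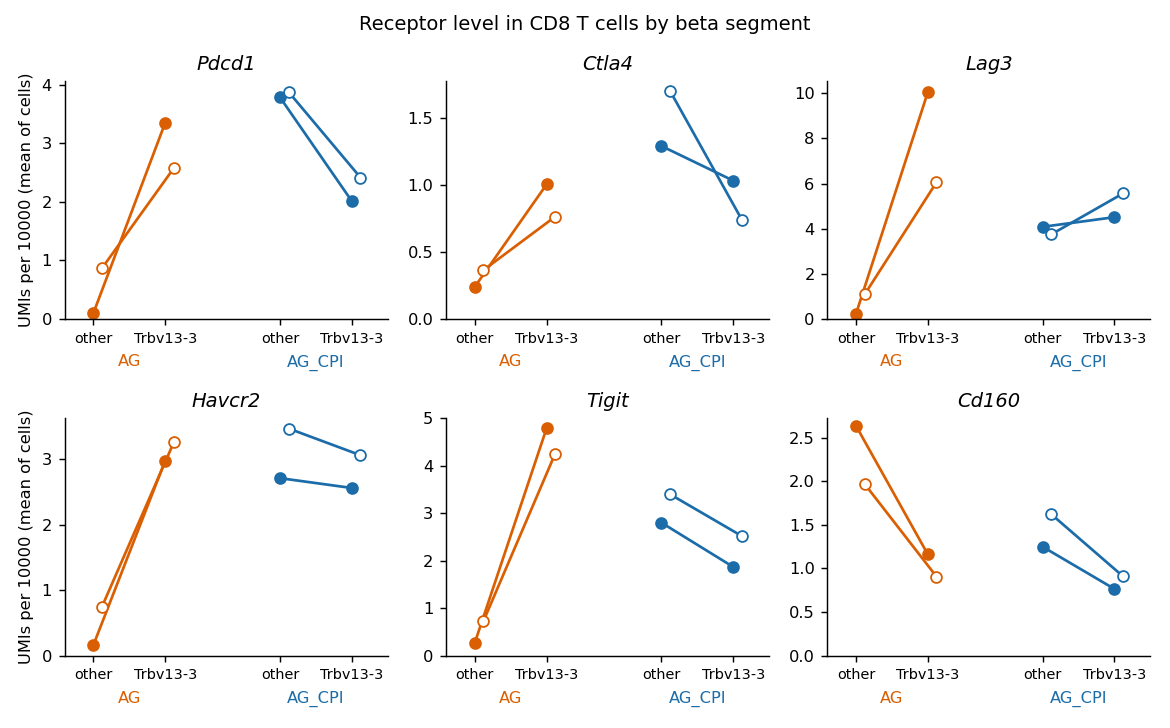
Mean UMIs per 10000 of each receptor in CD8 T cells with another beta segment (left of each pair) and with Trbv13-3 (right), joined by a line for each mouse (filled points, replicate 1; open points, replicate 2; orange, AG; blue, AG_CPI). The lines of AG climb for every receptor but Cd160, while those of AG_CPI are near level or fall for all but Lag3.

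With the mouse as a block, limma called 268 of 7563 genes (3.54%; 2.14% higher and 1.40% lower) between Trbv13-3 and other-segment cells over the 4 mice, 5 of the 6 receptors among them. Lag3 (2.04 ± 0.16), Havcr2 (1.36 ± 0.14), Tigit (1.33 ± 0.13) and Pdcd1 (1.05 ± 0.18) were higher and Cd160 (-0.86 ± 0.12) lower, with limma's adjusted p at or under 3.02e-05, and Ctla4 (0.33 ± 0.15, adjusted p = 0.334) was not called. The sizes turned on the AG mice: without AG replicate 1 and without AG replicate 2, the segment difference was 0.40 and 1.69 for Pdcd1, 1.41 and 2.67 for Lag3, 0.98 and 1.73 for Havcr2 and 1.01 and 1.64 for Tigit. The mean over both groups hides the turn between them, which the difference between the groups' segment differences tests. That test called 363 of 7563 genes (4.8%; 2.22% higher and 2.58% lower), 5 of the 6 receptors among them: in AG_CPI the segment difference was smaller by 3.59 ± 0.35 for Pdcd1, 3.59 ± 0.25 for Tigit, 3.34 ± 0.33 for Lag3, 2.92 ± 0.27 for Havcr2 and 2.02 ± 0.31 for Ctla4. Cd160 had a difference of 0.35 ± 0.24 (adjusted p = 0.553). With a mouse left out, the change of the segment difference was -4.89 to -2.29 for Pdcd1, -4.61 to -2.08 for Lag3, -4.24 to -2.94 for Tigit and -3.69 to -2.16 for Havcr2, the ends being the fits without AG replicate 2 and without AG replicate 1, and -2.43 to -1.61 for Ctla4. These p-values lean on a spread shared across genes, since the fit leaves 2 residual degrees of freedom. The SD of Pdcd1 and Lag3 in it was 0.923 and 0.903, and limma used 0.248 and 0.232. With a constant prior, which does not follow the mean level, chosen after seeing the data, Tigit was the only receptor still called for the difference between groups (limma's adjusted p = 0.0371), and Pdcd1 had 0.12, Ctla4 0.12, Lag3 0.126 and Havcr2 0.0835. With the robust prior Ctla4 and Tigit were called. The segment comparison itself had 0 and 2 receptors called under these priors. The signs per mouse did not depend on the prior.

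The 2 kinds of cell also differed in cluster and depth. Of the other-segment cells 87.5% and 52.0% were in cluster 11 in the AG mice, but 10.4% and 11.6% in the AG_CPI mice, where most were in clusters 7, 8 and 10. Trbv13-3 cells were in clusters 7, 8 and 10 in all 4 mice, with 28.2% and 34.0% in cluster 10 in AG and 63.0% and 56.0% in AG_CPI. The median depth in UMIs was 3300.5 against 2417 in AG replicate 1 and 2905 against 2004.5 in replicate 2, and 2217 against 2327 and 2667.5 against 2856.5 in the AG_CPI mice. Within cluster 10 alone, with 13 and 21 other-segment cells in the AG mice, the group difference of the segment difference was -3.75 for Havcr2, -3.03 for Pdcd1, -2.79 for Tigit, -2.38 for Lag3 and -1.78 for Ctla4, and limma called none of them (lowest adjusted p = 0.0622, for Lag3). Leaving out the other-segment cells with a Trav14-1 UMI kept all 5 calls.

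Each kind of cell was also compared between groups on its own, which was added after the data had been seen. Among other-segment cells, limma called 19 of 7525 genes (0.252%; 0.239% higher and 0.0133% lower) between AG and NO_AG and 0 receptors, with 499 genes at an unadjusted p under 0.05 and 7 called by limma-voom. Ctla4 was nearest, at 1.52 ± 0.37 with an adjusted p of 0.0948. AG replicate 2 was the higher of the AG mice for 5 receptors, and the values turned on which AG mouse was kept: Pdcd1 was between -0.10 and 2.13, Havcr2 between 0.38 and 2.02 and Lag3 between -0.20 and 1.58 with a mouse left out. These 3 were called without AG replicate 1, in a fit that holds 1 AG mouse and assumes that it varies like the other groups. Between AG_CPI and AG, 73 of 7525 genes (0.97%) were called in these cells, 40 (0.532%) of them higher and 33 (0.439%) lower, 5 receptors among them: Pdcd1 by 3.15 ± 0.43 or 8.89-fold, Havcr2 by 2.73 ± 0.40, Lag3 by 2.67 ± 0.37, Tigit by 2.52 ± 0.34 and Ctla4 by 1.98 ± 0.37, with limma's adjusted p at or under 0.00368. The level in each AG_CPI mouse was above that in each AG mouse for these 5. Their size turned on the AG mice: without AG replicate 1 and without AG replicate 2, Pdcd1 differed by 2.04 and 4.26, Havcr2 by 1.91 and 3.54, Lag3 by 1.77 and 3.55 and Tigit by 1.97 and 3.07. Under the constant prior, none of the 5 was called (adjusted p of 0.101 to 0.117), and under the robust prior Pdcd1 was not (0.0801). Without AG_CPI replicate 1, in which Xist differed between the segments, 4 of the 5 kept the call and Ctla4 did not (adjusted p = 0.0738), nor did Ctla4 without AG_CPI replicate 2 (0.144) or AG replicate 1 (0.0512). Of 11 keratinocyte and myeloid genes, 2 keratins were lower in these AG_CPI cells, Krt17 (-2.36 in log2) and Krt5 (-1.55), with limma's adjusted p of 0.00172 and 0.0207, and the list's median was -0.68, against 0.00 for all genes. Their part in the receptor differences was not tested.

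Among Trbv13-3 cells, 71 of 6939 genes (1.02%) were called between AG_CPI and AG, 40 (0.576%) higher and 31 (0.447%) lower, with Tigit the only receptor. Tigit fell by 1.06 ± 0.18, from 4.78 and 4.25 to 1.87 and 2.52 UMIs per 10000, with limma's adjusted p of 0.0165. Lag3 differed by -0.67 ± 0.22 (adjusted p = 0.239) and Pdcd1 by -0.44 ± 0.19 (adjusted p = 0.388), and Havcr2, Ctla4 and Cd160 by -0.19, -0.04 and -0.31. With a mouse left out Tigit stayed between -1.26 and -0.86, and its call was lost without either AG_CPI mouse (adjusted p = 0.954 and 0.535), under the constant prior (0.0598) and within cluster 10 (-0.56, adjusted p = 0.406). Without AG replicate 2, Lag3 (-1.04) and Pdcd1 (-0.63) were called as well. In the same comparison 1 of 12 activating counterparts was called, Cd226, the activating receptor with which TIGIT competes, which rose by 1.26 (limma's adjusted p = 0.0162). Of 21 regulators Tox (-0.97), a factor of chronically stimulated T cells, was called, of 15 other inhibitory receptors Il10ra (-0.97), of 24 signalling partners Sh2d2a (-0.88), and of 10 ligands none (limma's adjusted p of 0.0207 to 0.038). Of the 11 keratinocyte and myeloid genes, Krt17 (-1.29) and Perp (-1.06) were lower in these cells as well (limma's adjusted p = 0.0201 and 0.0282), with a median of -0.70 for the list, and their part in the Tigit difference was not tested.

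The group difference of the segment difference was called for 11 of 22 regulators, 8 of them lower and 3 higher in AG_CPI, where 4.8% of all genes were called, with Tox (-2.96), Nr4a2 (-1.68), Batf (-1.49) and Rbpj (-1.11) lower and Tcf7 (1.96) higher. Of 16 other inhibitory receptors 7 were called, 6 lower, with Klrc1 (-1.97), Entpd1 (-2.75), Klrd1 (-1.24), Il10ra (-2.05) and Cd200 (-2.72) at the smallest p. Of 12 activating counterparts 4 were called, with Tnfrsf9 (-2.80), Tnfrsf4 (-2.32) and Cd27 (-1.13) lower and Cd226 (1.38) higher. None of 12 keratinocyte and myeloid genes was called there. The limits of the shared spread above hold for these genes too.

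Single CD8 T cells were scored for how many of the 6 receptors they showed at 1500 UMIs. Cells with 2 or more were 4.26% and 1.63% of CD8 T cells in NO_AG, 37.2% and 44.9% in the AG mice, and 42.3% and 49.0% in AG_CPI. Cells with none were 76.6% and 66.5% in NO_AG, 33.1% and 26.7% in the AG mice, and 23.8% and 20.02% in AG_CPI. Cells with 3 or more were 0% and 0.326%, 16.7% and 22.9%, and 15.4% and 20.8%, and no cell had all 6 at this depth. Of the 94 cells of NO_AG replicate 1, none had 3 or more, which allows a share of up to 3.19%. In keratinocyte-like cells 2 or more receptors were found in 0% to 1.65% of cells, with 0% in both NO_AG mice and 1.40% to 1.65% in AG replicate 2 and the AG_CPI mice, below the CD8 T cells of the same mouse each time.

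By segment, 67.1% and 55.1% of Trbv13-3 cells had 2 or more receptors in the AG mice and 41.7% and 48.8% in the AG_CPI mice. Other-segment cells had 2.90% and 14.7% in AG and 56.0% and 55.5% in AG_CPI. The kinds of cell thus changed places: in each AG mouse the Trbv13-3 cells, and in each AG_CPI mouse the other-segment cells, held the larger share. With 2 mice a group these shares were not tested.

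**Figure D3:**
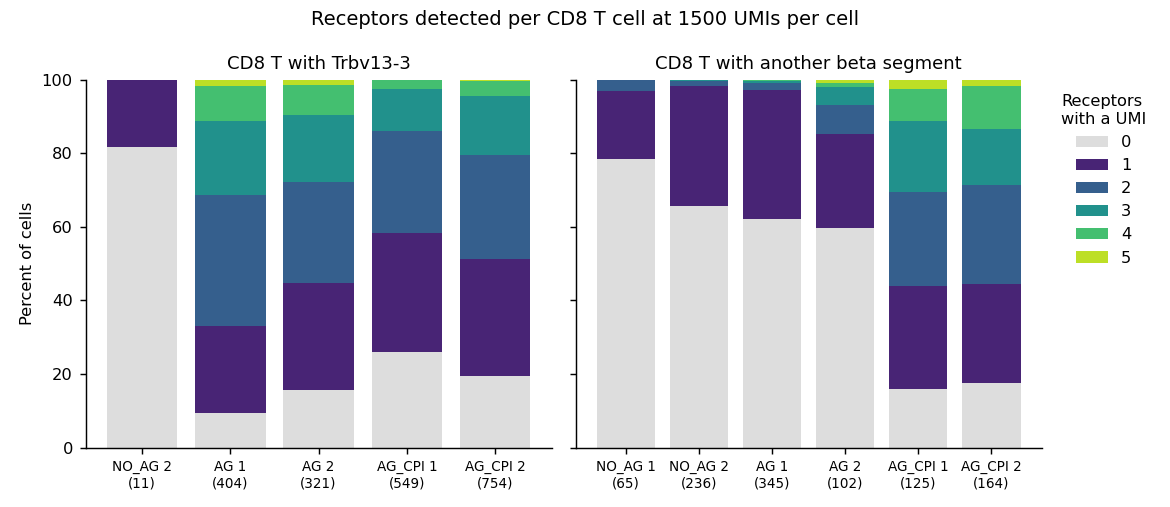
Percent of CD8 T cells with 0 to 5 of the 6 receptors detected at 1500 UMIs per cell, stacked by mouse, for cells with Trbv13-3 (left) and with another beta segment (right), with the number of cells in brackets. Cells with no receptor are 62.0% and 59.8% of the other-segment cells in AG but 16% and 17.7% in AG_CPI.

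For pairs without Cd160, the median odds ratio was higher in all CD8 T cells of the AG mice than within their Trbv13-3 cells, while the share of cells with both Pdcd1 and Lag3 was larger within the Trbv13-3 cells. Cells with both Pdcd1 and Lag3 were 12.7% of all CD8 T cells and 24.5% of Trbv13-3 cells in AG replicate 1, and 11.5% and 14.0% in AG replicate 2. In AG replicate 1, Lag3 was found in 68.1% of 163 cells with Pdcd1 and in 28.8% of 709 cells without it, an odds ratio of 5.28, and in AG replicate 2 in 52.4% and 34.0% (2.13). Within the Trbv13-3 cells the same odds ratio was 1.46 in AG replicate 1 and 1.21 in replicate 2. Over the 10 pairs without Cd160, the median odds ratio in all CD8 T cells was 3.24 and 2.42 in the AG mice and 1.39 and 1.36 in the AG_CPI mice, and within Trbv13-3 cells 1.37, 1.75, 1.34 and 1.29. In other-segment cells it was 13.1 and 5.64 in the AG mice, where few cells held any of these receptors (3 and 6 with Pdcd1), and 1.61 and 1.78 in the AG_CPI mice. Pairs with Cd160 had medians of 0.496, 0.713, 0.905 and 0.859 in all CD8 T cells of these 4 mice, and of 1.06, 0.881, 1.08 and 0.958 within Trbv13-3 cells. In other-segment cells the medians with Cd160 were 0.206 and 1.56 in the AG mice and 0.837 and 0.733 in the AG_CPI mice. These odds ratios are descriptions over cells of a mouse, and a UMI missed at this depth counts as no receptor.

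The receptors differed in which cell classes held them, over mice with at least 10 cells of a class. These means and SDs run over mice of all groups, so that the SD holds the difference between groups as well. CD4 T cells were those without a Foxp3 UMI. Of them, 10.0% to 72.7% per mouse lay in a cluster led by genes of regulatory T cells. Ctla4 was highest in regulatory T cells (6.24 ± 2.57, SD over 6 mice), then in CD4 T cells (3.07 ± 1.57) and CD8 T cells (0.608 ± 0.427), and it was 0 in all 5 mice in a cluster led by Gzmc and Xcl1. Tigit had the same first classes, with 5.06 ± 2.46 in regulatory T cells and 2.98 ± 1.86 in CD4 T cells, which overlapped in their spread. So did dendritic epidermal T-like cells (1.92 ± 2.69, 5 mice) and CD8 T cells (1.88 ± 1.31). In dendritic epidermal T-like cells the mice ran from 0.231 to 6.53, the latter in AG replicate 2. Lag3 was highest in CD8 T cells (3.38 ± 2.45), followed by cycling CD8 T cells (2.5 ± 2.14), CD4 T cells (2.15 ± 2.38), dendritic epidermal T-like cells (1.98 ± 1.49), regulatory T cells (1.56 ± 0.884) and the Gzmc Xcl1 cluster (1.28 ± 0.631), none of which stood clear of its neighbour. The order without antigen was another: in NO_AG, Lag3 was at 3.38 in dendritic epidermal T-like cells, 0.978 in the Gzmc Xcl1 cluster and 0.249 in CD8 T cells (means of 2 mice). Pdcd1 was near equal in CD8 T cells (1.48 ± 1.08), CD4 T cells (1.41 ± 1.03) and cycling CD8 T cells (1.26 ± 0.988), with 0.676 ± 0.524 in regulatory T cells and 0.342 ± 0.319 in group 2 innate lymphoid-like cells. That class is mixed: in the 5 mice with at least 10 of its cells, a UMI of Trdv4, a gamma-delta T cell segment, was found in 14.2% to 38.8% of them and one of Cd3e in 23.6% to 72.7%. In NO_AG, Pdcd1 was at 0.373 in regulatory T cells, 0.244 in CD4 T cells and 0.112 in CD8 T cells, the first 2 from 2 or 3 UMIs a mouse. Havcr2 alone had myeloid classes at the level of the T cells in these pooled means: monocyte or macrophage-like cells (1.88 ± 0.634, the 4 mice with antigen), CD8 T cells (1.64 ± 1.29) and dendritic or Langerhans-like cells (1.64 ± 0.558) lay within one another's spread. In NO_AG it was 1.38 ± 0.0718 in dendritic or Langerhans-like cells and 0.0936 ± 0.0649 in CD8 T cells (SD, n = 2). Cd160 was highest in the Gzmc Xcl1 cluster (5.84 ± 2.13, 5 mice), clear of CD8 T cells (1.53 ± 0.736), and lowest among T cells in CD4 T cells (0.129 ± 0.172) and regulatory T cells (0.0710 ± 0.109). Keratinocyte-like cells had 0.0239 to 0.104 of each receptor.

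**Figure D4:**
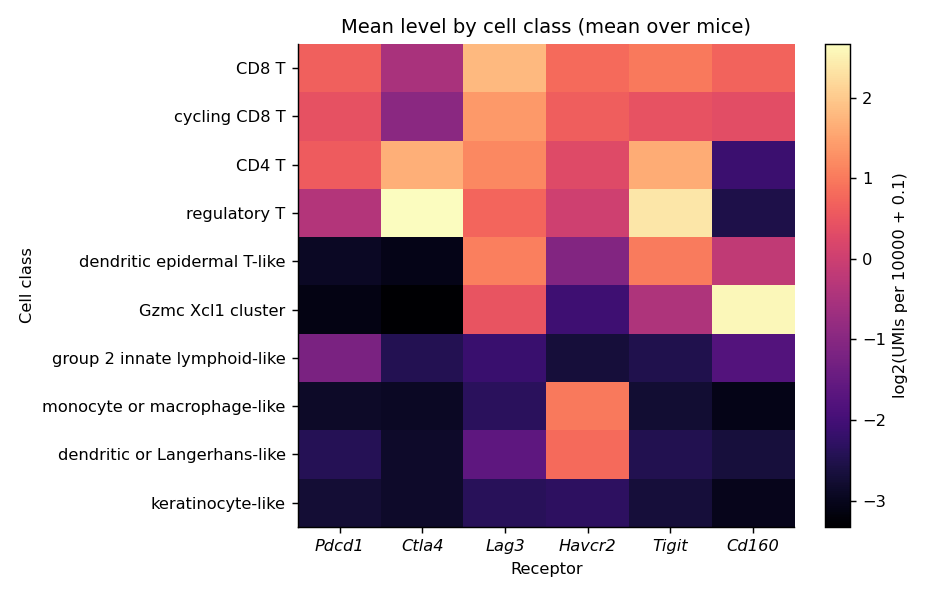
Mean over mice of each receptor's level in 10 cell classes, as log2(UMIs per 10000 + 0.1), darker for lower levels. Ctla4 and Tigit peak in regulatory T cells, Cd160 in the Gzmc Xcl1 cluster, and the pooled mean of Havcr2 is as high in the 2 myeloid classes as in CD8 T cells, whereas in NO_AG alone it was 1.38 in dendritic or Langerhans-like cells and 0.0936 in CD8 T cells.

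Regulatory T cells, gated on a Foxp3 UMI, were set against CD8 T cells of the same mouse in the 4 mice with antigen. Limma called 694 of 7822 genes (8.87%), 209 higher (2.67%) and 485 lower (6.2%), or 344 and 245 with the deposited scaling alone, where the median of all genes was 0.03 rather than -0.19. Ctla4 was higher in regulatory T cells by 2.55 ± 0.26 (adjusted p = 3.28e-05), at 7.73, 6.16, 3.82 and 10.6 UMIs per 10000 in AG replicates 1 and 2 and AG_CPI replicates 1 and 2. Cd160 (-3.25 ± 0.39), Pdcd1 (-1.80 ± 0.26), Lag3 (-1.76 ± 0.17) and Havcr2 (-1.55 ± 0.29) were lower, with limma's adjusted p at or under 0.00341. Havcr2 lost the call under the constant prior (adjusted p = 0.0636) and without AG_CPI replicate 2 (0.0506). Tigit differed by 0.60 ± 0.26 (adjusted p = 0.184) and was called, at 1.01, without AG_CPI replicate 1, which had 14 regulatory T cells and a Tigit level of 1.72 against 5.96 to 8.37 in the other 3 mice. Of 12 activating counterparts, 5 were higher and 3 lower.

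Between groups, no receptor was called in CD4 T cells, regulatory T cells, dendritic epidermal T-like cells or group 2 innate lymphoid-like cells, where 5, 5, 4 and 3 of the 6 passed the filter on low values. Limma called 0 genes (0%) in all 6 comparisons, with 380 and 430 genes at an unadjusted p under 0.05 for CD4 T cells, 401 and 234 for regulatory T cells (AG against NO_AG, then AG_CPI against AG), 558 for dendritic epidermal T-like cells and 347 for group 2 innate lymphoid-like cells (AG against NO_AG). Limma-voom called 13 and 8, 0 and 0, 0, and 1 genes, and no receptor. CD4 T cells, of which there were 16 to 89 per mouse, had the largest log2 differences between AG and NO_AG: Tigit was at 0.633 and 0.982 in NO_AG, 3.23 and 3.32 in the AG mice, and 4.30 and 5.41 in AG_CPI, and Pdcd1 at 0.307 and 0.182, 1.30 and 2.29, and 2.73 and 1.61. Both were above the NO_AG mice in all 4 mice with antigen, by 2.07 ± 0.37 and 2.57 ± 0.49 in log2 between AG and NO_AG (adjusted p = 0.373 for each). With the cycling cluster included, an alternative chosen after seeing the data, both were called (limma's adjusted p = 0.0398). The share of these CD4 T cells that lay in a cluster led by genes of regulatory T cells was 26.1% and 10.0% without antigen, 43.8% and 46.8% in the AG mice and 62.5% and 72.7% in the AG_CPI mice, and its part in the values was not tested. Ctla4 in regulatory T cells was at 4.67 and 4.41 in NO_AG, 7.73 and 6.16 in the AG mice, and 3.82 and 10.6 in AG_CPI, with a difference of 0.76 ± 0.41 between AG and NO_AG (adjusted p = 0.86).

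The genes whose level ran most like a receptor's were taken over 33 means of a mouse and class, from 7 lymphocyte classes with at least 20 cells, among 7375 genes. Means of 1 mouse share a library and classes share lineage genes, so Pearson's r describes only this set. The 6 receptors were left out of these rankings and are given against each other after them. Of the other genes, Pdcd1 was nearest to Plac8 (0.817), Pde4d (0.816) and Ctse (0.808), and Ctla4 to Tnfrsf4 (0.92), Arl5a (0.911) and Cd200r1 (0.901). Lag3 was nearest to Il10ra (0.746), Trbc2 (0.718) and Prkch (0.716), and Havcr2 to Entpd1 (0.796) and Gzmb (0.795). Tigit was nearest to Srgn (0.812), Tnfrsf1b (0.799) and Vmp1 (0.798), and Cd160 to Cx3cr1 (0.881), Tm6sf1 (0.838) and Ifitm10 (0.832). Among the receptors themselves, r was highest for Ctla4 with Tigit (0.833) and Pdcd1 with Havcr2 (0.825), and lowest for Ctla4 with Cd160 (-0.671). The sum of the 6 was nearest to Entpd1 (0.856).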

How the data were processed

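Single cells of skin were sequenced with a 10x 5' kit in 6 mice, 2 in each of NO_AG, AG and AG_CPI. Per the submitters' processing notes, Cell Ranger 3.1 and the mm10 build were used. The deposited values are log10(1 + UMIs per 10000), a log10 scale read from the values, since under it 100% of them came out as whole UMIs (tolerance 0.02). How the authors filtered cells is not given in the sources used here; each deposited cell has at least 1501 UMIs.

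Of 21178 cells, 51 failed filters (at least 200 genes, at most 20% mitochondrial UMIs) and 663 were removed as doublets by their Scrublet scores. Clustering in scanpy 1.11.5 (2000 variable genes, 30 components, Leiden resolution 1) gave 49 clusters. The 6 receptors, alpha and beta receptor segments and mitochondrial genes were left out, and gamma and delta chain genes were not. Clusters were named from marker lists. In alpha-beta T-like clusters other than the cycling one, CD8 T cells were those with Cd8a or Cd8b1 detected but not Cd4, regulatory T cells those with Foxp3 but not Cd8, and CD4 T cells those with Cd4 but neither Cd8 nor Foxp3. Trdc UMIs were allowed.

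Linear values were averaged per mouse and class (at least 10 cells), scaled by trimmed means, and tested with limma 3.58.1 (trended prior, R 4.3.3) on log2(mean + 0.1), over genes with at least 10 UMIs and a mean of 0.1 in 2 libraries, with Benjamini-Hochberg adjustment and calls at 0.05. The code was tested on simulated data. Named genes were the 6 receptors, up to 5 called genes per list with the smallest p, and 3 genes most like each receptor, of which 1 is not reported here. The members and the lists were chosen with earlier results of these data known. Replicate numbers were not used to pair the mice. Alternatives covered the pseudocount, filter, scaling, limma-voom, thinning, doublets, gates, replicates left out and the prior.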

Additional observations from a re-analysis of the deposited data

Results flagged for a closer look

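In CD8 T cells the difference between cells with Trbv13-3 and cells with another beta segment was not the same in the AG_CPI mice as in the AG mice, by a test of the difference itself, for 5 of the 6 receptors. The same test called 363 of 7563 genes (4.8%), 2.22% higher and 2.58% lower. The change, AG_CPI minus AG on the log2 scale, was -3.59 for Pdcd1, -3.59 for Tigit, -3.34 for Lag3, -2.92 for Havcr2 and -2.02 for Ctla4. The segment difference per mouse was 4.11 and 1.47 for Pdcd1 in the AG mice and -0.88 and -0.66 in the AG_CPI mice. For Lag3 it was 4.95 and 2.38, then 0.14 and 0.56. For Tigit it was 3.74 and 2.40, then -0.56 and -0.42, for Havcr2 3.55 and 1.98, then -0.08 and -0.17, and for Ctla4 1.70 and 0.90, then -0.30 and -1.10. No AG_CPI mouse reached an AG mouse for any of the 5. Limma's adjusted p was at or under 5.72e-06 with the trended prior, and 0.0371 for Tigit and 0.0835 to 0.126 for the others with the constant one. The shares of other-segment cells in cluster 11, 87.5% and 52.0% in AG and 10.4% and 11.6% in AG_CPI, moved with it, and their part in the result was not tested.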

How the results depend on the processing

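Precision was limited by 2 mice a group and, in the NO_AG mice, by 94 and 307 CD8 T cells. Of the receptor values in each comparison, 638 kept their direction and side of the threshold under another setting, 60 lost a call, 4 gained one and 12 changed sign; with a mouse left out these numbers were 253, 7, 8 and 8. Cluster subsets, the cycling cluster and the constant and robust priors were chosen after seeing the data. A fit without a mouse leaves 1 mouse in its group, which is assumed to vary like the other groups. The cause of the differences between settings was not tested.

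Counts of genes called moved by over 1.5 times as follows. For CD8 T cells, AG against NO_AG (130 genes), the count was 0 in cluster 11, 361 outside it, 83 without cells with Trdc, 76 with gates on Cd3 alone, 17 with no filter, 66 with limma-voom, and 38 to 914 with a mouse left out. For AG_CPI against AG (6) it was 3 in cluster 11, 0 outside it, 1 with the constant prior, with the Cd3 gates or with no filter, 29 with limma-voom, and 1 to 18 with a mouse left out. For AG_CPI against NO_AG (234) it was 7 in cluster 11, 56 with no filter, 142 with limma-voom, and 45 to 1032 with a mouse left out. Between segments (268) it was 12 in cluster 10, 31 with the constant prior, 103 with no filter, 170 after thinning, and 162 to 342 with a mouse left out. For the group difference of the segment difference (363) it was 1 in cluster 10, 18 with the constant prior, 129 with no filter, 186 after thinning, and 171 to 446 with a mouse left out. For Trbv13-3 cells, AG_CPI against AG (71), it was 25 in cluster 10, 40 with the constant prior, 40 with the Cd3 gates, and 0 to 406 with a mouse left out. For other-segment cells, AG against NO_AG (19), it was 0 with the constant prior or no filter, 34 with the cycling cluster, 10 with the robust prior, 7 with limma-voom, and 1 to 50 with a mouse left out. For the same cells, AG_CPI against AG (73), it was 0 in cluster 10, 2 with the constant prior, 119 with the cycling cluster, 38 with no filter, 168 with limma-voom, and 20 to 104 with a mouse left out. For regulatory against CD8 T cells (694) it was 320 with the constant prior, 1366 with limma-voom, and 353 to 1223 with a mouse left out. For CD4 T cells (0 in both comparisons) AG against NO_AG gave 5 with the cycling cluster, 1 with the Cd3 gates and 13 with limma-voom, and AG_CPI against AG gave 1 with the Cd3 gates, 8 with limma-voom and 0 to 1 with a mouse left out. For AG against NO_AG in group 2 innate lymphoid-like cells (0) it was 1 with a pseudocount of 0.5, 1 with limma-voom and 0 to 393 with a mouse left out, in dendritic epidermal T-like cells (0) 3 to 2214, and in regulatory T cells 0 to 6, or 0 to 1 for AG_CPI against AG.

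The replicate numbers were not used to pair the mice. In CD8 T cells, the correlation of the deviations of same-numbered mice over 1839 genes was -0.075, -0.009 and -0.319 for the pairs of groups. These values from 1 class of cell cannot exclude a batch shared by same-numbered mice. With the replicate number as a block, the counts were 6 for CD4 T cells, 12 for regulatory T cells, 63 for dendritic epidermal T-like cells and 1 for group 2 innate lymphoid-like cells (AG against NO_AG), and 182 for Trbv13-3 cells (AG_CPI against AG); in CD8 T cells they were 144, 8 and 233.

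Signs changed for receptors without a call. Ctla4 in Trbv13-3 cells, AG_CPI against AG, was 0.43 in cluster 10, 0.14 without cells with Trdc, 9.09e-05 with the deposited scaling, 0.033 with the Cd3 gates and -0.26 to 0.18 with a mouse left out. In other-segment cells, AG against NO_AG, leaving out a mouse gave -0.29 to 1.06 for Cd160, -0.20 to 1.58 for Lag3 and -0.10 to 2.13 for Pdcd1. In CD8 T cells Cd160 was 0.64 in cluster 11 and -0.73 to 0.36 with a mouse left out (AG against NO_AG), and 0.0437 in cluster 11 for AG_CPI against NO_AG. For AG_CPI against AG, Lag3 was 1.31 in cluster 11, 0.16 without cells with Trdc, 0.11 with the Cd3 gates and -0.20 to 0.0453 with a mouse left out, Tigit was 1.17 in cluster 11, and Pdcd1 was -0.22 outside it. Cd160 was -0.43 in cluster 10 for the group difference of the segment difference.

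With all UMIs in place of 1500 a cell, the mean share of CD8 T cells with a UMI in the NO_AG, AG and AG_CPI mice was 2.86%, 33.8% and 37.5% for Pdcd1, 4.73%, 49.9% and 56.0% for Lag3, 5.15%, 44.3% and 37.5% for Tigit and 33.3%, 29.3% and 16.6% for Cd160. In the AG and AG_CPI mice it was 13.7% and 18.8% for Ctla4 and 37.7% and 44.0% for Havcr2. The share with 2 or more receptors was 6.655%, 57.2% and 64.0%.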

Other observations

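Dendritic epidermal T-like cells carried Trdv4, one of the markers that name this class, in 93.7% to 98.4% of cells in the NO_AG and AG mice. In these cells, which are gamma-delta T cells of the epidermis, Lag3 was at 3.78 and 2.98 UMIs per 10000 in the NO_AG mice and at 2.24 and 0.435 in AG replicates 1 and 2. Tigit was at 0.415, 0.293 and 0.231 in the first 3 of these mice and at 6.53 in AG replicate 2, where 110 such cells were measured, and at 2.16 in the 18 cells of AG_CPI replicate 2. AG replicate 2 therefore had the lowest Lag3 and the highest Tigit of the 4, and neither receptor was called between AG and NO_AG (limma's adjusted p = 0.688 and 0.754). The median depth of these cells was 1931.5 UMIs in AG replicate 2 against 2252 to 2734.5 in the other 3, and the part of depth in these values was not tested.

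Cd160 in the cluster led by Gzmc and Xcl1, in which Cd3e was found in 40.0% to 73.0% of cells, was at 3.95, 4.61, 7.45, 4.44 and 8.77 UMIs per 10000 in NO_AG replicates 1 and 2, AG replicates 1 and 2 and AG_CPI replicate 2. The cluster had 163, 63, 31, 14 and 10 cells in these mice. Pdcd1 there was at 0 to 0.0671.

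In cycling CD8 T cells Tigit was at 2.41 and 2.40 in AG and at 0.844 and 1.47 in AG_CPI, and Lag3 at 5.71 and 3.47 in AG and at 2.45 and 3.12 in AG_CPI. Pdcd1 was at 2.59 and 1.87 in AG and at 1.33 and 1.54 in AG_CPI. For these 3 receptors each AG_CPI mouse was below each AG mouse, while the mice of the groups overlapped for Havcr2 (1.72 and 2.30, then 2.00 and 2.36), Ctla4 and Cd160; no difference was tested.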
